A study of Saccharomyces cerevisiae with 12 samples.

Results

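The 3 libraries taken after 60, 90 and 120 min of rapamycin, of 12 polyA RNA-seq libraries in all, record what yeast cells express once Sis1 has been kept out of the nucleus for an hour or longer. They were chosen by their labelled treatment and time, and are called the late libraries. The strain of Saccharomyces cerevisiae, labelled Sis1-AA, was grown in YPD, a rich medium with glucose, and received 1 µM rapamycin. The 2 untreated libraries were the 30 °C control that opens the heat course and the library that opens the rapamycin course, with 0 µM rapamycin. For comparison there were 2 early rapamycin libraries, after 15 and 30 min, and 3 late heat libraries, after 60, 90 and 120 min at 39 °C. Anchor-away moves a tagged nuclear protein into the cytoplasm, because rapamycin couples it to an abundant anchor protein that leaves the nucleus. All cells compared, the untreated and heated ones included, carried the tagged Sis1. The study asks how losing Sis1 from the nucleus compares with heat shock.

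Sis1 is a J-domain protein, a class of co-chaperones that hand unfolded clients to the chaperone Hsp70 and make it hydrolyse ATP. Hsf1, the heat shock transcription factor, drives the genes of cytosolic chaperones, and Hsp70 bound to Hsf1 holds it back in unstressed cells. A second stress system, the factors Msn2 and Msn4, drives a general stress programme of trehalose, glycogen and antioxidant genes. The unfolded protein response, run by Ire1 and Hac1, raises chaperones of the endoplasmic reticulum (ER).

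The 5 libraries of the main comparison held 2991418 to 4379304 reads in 5045 listed genes, and 54 to 64 genes had no read. The values are the authors' normalised read counts, and 3 reads, which is what a gene without any read could still have, equal 2.59 to 4.28 of them. The 4937 genes that averaged 10 or higher across the 12 libraries were compared as log2(value + 1), so that changes of low genes are understated. Of them 386 differed 2-fold or more from the untreated mean at 60 min, 536 at 90 min and 645 at 120 min, against 79 at 15 min and 167 at 30 min. The untreated libraries differed that much in 40 genes. Markers of the alpha mating type were abundant, while the a-factor genes MFA1 and MFA2 and the a-agglutinin gene AGA2 stood at 1.73 to 13.6. FPR1, the rapamycin receptor that anchor-away strains usually lack, had 1 to 3 reads per library. TOR1, the kinase that rapamycin inhibits through that receptor, stood at 563 and 642 untreated and 530, 563 and 599 late, an overlap in which 2 of the 3 late values lie below both untreated ones, and its change of −0.09 was not called (adjusted p 0.564). No library had rapamycin without the tagged Sis1, so that an effect of rapamycin itself and one of Sis1 loss cannot be told apart. A pool of cells also cannot tell fewer cells of a kind from less RNA per cell.

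Each time point was 1 library. The mean of the late libraries was set against the mean of the untreated ones in a limma fit across all genes. The spread is therefore that between 3 times and between 2 untreated libraries, and the p-values carry no check by repeated cultures. At a Benjamini-Hochberg adjusted p under 0.05 the late libraries differed from untreated in 1949 of 4937 genes (39.5%). Of these 824 were higher (16.7%) and 1125 lower (22.8%). By at least 2-fold 177 were higher (3.59%) and 302 lower (6.12%). The split depends on scaling. With every library set to the same total, 1190 of 1978 called genes were higher (60.2%, against 42.3% as deposited), and the median of all genes went from −0.05 to 0.09 (log2). Without the 90 min library 1260 genes were called. Standard errors (SE) below come from this fit.

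The 6 largest rises, those of SSA4, HSP42, SSA1, HSP104, HSP82 and BTN2, were all in chaperone or protein sorting genes of the cytosol. HSP42 and HSP104, and SIS1 itself, held a perfect heat shock element, the site of Hsf1, upstream. These stretches of the R64 genome are shown with the element in capitals, on the strand of the gene.
HSP42, chrIV:806348-806425, plus strand: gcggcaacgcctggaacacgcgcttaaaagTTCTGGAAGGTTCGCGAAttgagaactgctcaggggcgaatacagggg
HSP104, chrXII:88291-88368, plus strand: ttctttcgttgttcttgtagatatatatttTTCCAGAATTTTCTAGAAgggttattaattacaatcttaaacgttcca
SIS1, chrXIV:619857-619939, minus strand: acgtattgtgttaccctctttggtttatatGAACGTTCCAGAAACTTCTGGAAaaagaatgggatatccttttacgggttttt
The motif searched was GAANNTTCNNGAA or TTCNNGAANNTTC, on both strands, in the 400 bases from 450 to 51 before the start codon. It was in 71 of 4914 such windows of all tested genes (1.44%). It was in 10 of the 38 windows (26.3%) of the Hsp70, exchange factor, J-domain, Hsp90 and disaggregation genes described below. These include SNL1 and HLJ1 of the ER membrane. Ribosome-associated chaperones held it in 0 of 7 windows, and the chaperonin CCT and prefoldin in 0 of 14. Of genes raised at least 2-fold, 21 of 175 windows held it (12%). SSA4 and HSP82 held no match to these letters in that window. A match is a run of letters, not a measured binding site.

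Cytosolic Hsp70 was raised in all 4 of its genes. SSA4, the stress-induced Hsp70 (YER103W), stood at 355 and 332 in the untreated libraries, and at 27861, 23062 and 21908 after 60, 90 and 120 min. The late values lie far above both untreated ones, and 60 min is the highest. The rise was 6.13 ± 0.13 (SE) on the log2 scale, the largest of any gene called (adjusted p 3.11e-09). SSA1 (YAL005C), which cells also make without stress, went from 666 and 628 to 12760, 13077 and 12094, a rise of 4.29 ± 0.11. SSA2 (YLL024C), the main Hsp70 of growing cells, went from 6269 and 5014 to 13917, 13429 and 11808, which is 1.22 ± 0.14. SSA3 (YBL075C) rose by 1.16 ± 0.12, from 210 and 248 to 536, 490 and 510. In each of the 4 genes the late values all lie above the untreated ones. SSA1 and SSA2, and SSA3 and SSA4, are pairs of similar sequence whose reads the counting could split or share, so the single values are uncertain.

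The partners of Hsp70 divided. Of the nucleotide exchange factors, which make Hsp70 release ADP, SSE1, SSE2 and FES1 rose by 1.27, 1.09 and 1.42. SNL1, the exchange factor in the ER and nuclear membrane, was lower by −1.13 ± 0.15, going from 382 and 515 to 222, 201 and 186. Of 11 J-domain proteins 6 rose and 5 fell, against 16.7% and 22.8% of all genes. SIS1 mRNA (YNL007C) stood at 670 and 443 untreated and 4197, 4038 and 3461 late, a rise of 2.83 ± 0.17 (adjusted p 5.43e-06). Its transcript was thus about as high at each late time, while the protein, which the method displaces, was not measured. APJ1, a J-protein that helps dissolve aggregates, rose by 1.55 ± 0.12 from 107 and 103 to 317, 297 and 318. YDJ1, the most abundant general J-protein of the cytosol, rose by 1.04 ± 0.13 from 2711 and 2802 to 6376, 5534 and 5140. HLJ1 of the ER membrane, the clathrin-uncoating SWA2 and XDJ1 rose by 0.63, 0.53 and 0.43. The falls were in JJJ1 (−1.54 ± 0.17), which serves ribosome maturation, and in JJJ3 (−1.20), JJJ2 (−0.91), DJP1 (−0.50) and CAJ1 (−0.43). The call of CAJ1 was lost under 10 alternatives, equal totals among them. Without the heat course's untreated library 4 were called higher, and without the rapamycin course's one 3 were called lower.

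Hsp90 and its partners divided in the same way, with 6 of 14 higher, 4 lower and a median of 0.24. The shares over all genes were 16.7% higher and 22.8% lower. HSP82 (YPL240C), the inducible Hsp90, went from 399 and 424 to 7178, 6336 and 6203, a rise of 3.99 ± 0.12. HSC82 (YMR186W), its constitutive and near-identical twin, went from 9666 and 11262 to 24274, 22444 and 22168 and rose by 1.14 ± 0.13. The scaffold STI1, which joins Hsp70 to Hsp90, rose by 2.23, the ATPase activator AHA1 by 1.76, the cyclophilin CPR6 by 1.74 and HCH1 by 1.28. In contrast CNS1, another Hsp70 and Hsp90 bridge, was lower by −1.27 ± 0.14, the phosphatase PPT1 by −1.13, PIH1 by −0.69 and CPR7 by −0.46. PIH1 and CPR7 lost their calls under equal totals, which left 2 lower. The kinase cochaperone CDC37 stood at 523 and 689 untreated and 767, 652 and 699 late, a change of 0.23 that was not called (adjusted p 0.228).

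**Figure D1:**
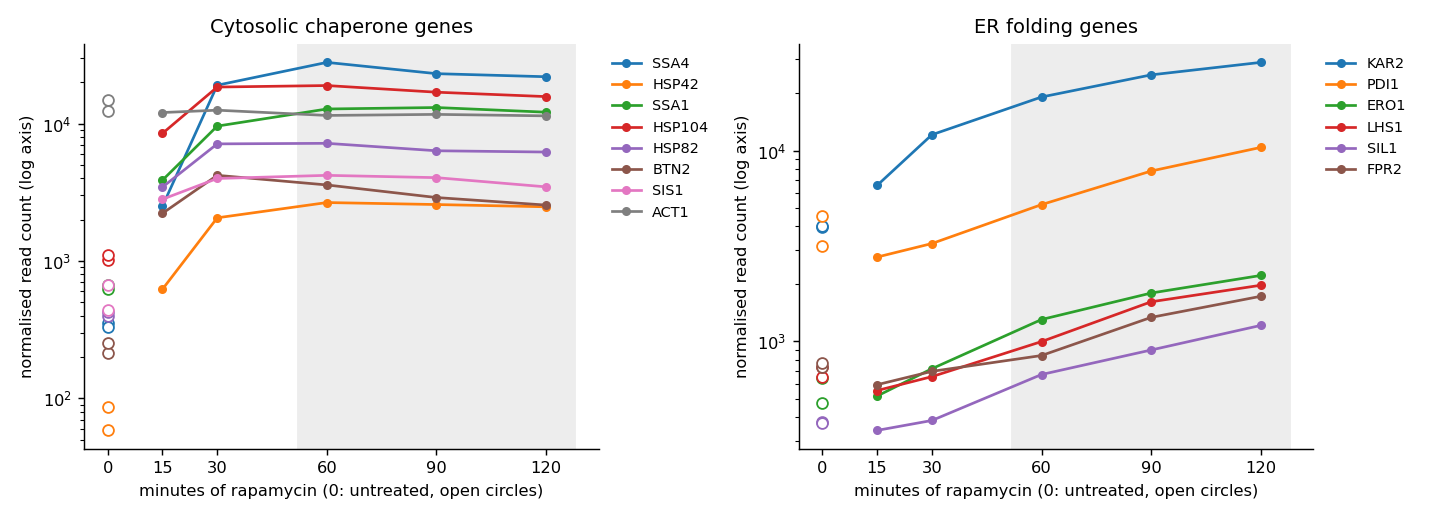
Normalised read count on a log axis against minutes of rapamycin, with the 2 untreated libraries as open circles at 0 and the late window shaded; each point is 1 library. SSA4, HSP42 and HSP104 are at their highest by 60 min and then level off, whereas KAR2 climbs from 19074 at 60 min to 28963 at 120 min.

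The disaggregation system held the highest median of any list, 3.67. HSP104 (YLL026W), the ATPase that pulls proteins out of aggregates, went from 1010 and 1101 to 18902, 16904 and 15707 (4.02 ± 0.12, adjusted p 2.22e-08). HSP42 (YDR171W), the small heat shock protein that gathers misfolded proteins into deposits, went from 58.5 and 86.2 to 2661, 2573 and 2478, a rise of 5.16 ± 0.16. BTN2 (YGR142W), which sorts aggregates, rose by 3.66 ± 0.15 and its relative CUR1 (YPR158W) by 1.84 ± 0.15. Both were past their highest value: BTN2 stood at 4199 at 30 min and at 3573, 2894 and 2550 later, and CUR1 at 590 at 30 min and 493, 391 and 364 later. HSP26 (YBR072W), the other small heat shock protein, did not pass the test. It stood at 72.7 and 55.9 untreated and 61.0, 78.6 and 102.8 late, so that the groups overlap (0.31 ± 0.23, adjusted p 0.327). Of the 5 genes 4 were called higher, against 16.7% of all genes.

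By their median, chaperones of mitochondria rose less than the cytosolic Hsp70 and disaggregation genes, but more than the J-domain and Hsp90 lists. Those that sit on the ribosome were mostly lower, and the median of CCT and prefoldin moved little. Of 10 mitochondrial matrix chaperones 6 rose, with a median of 1.05. The disaggregase HSP78 rose by 2.60 ± 0.13, the J-protein MDJ1 by 1.70 and the chaperonin HSP60 by 1.32, from 2159 and 1607 to 4906, 4580 and 4473. MGE1, the exchange factor of mitochondrial Hsp70, stood at −0.43, and its call was lost under 4 alternatives, equal totals among them. Chaperones that sit on the ribosome were lower in 5 of 7, with a median of −0.70. EGD2, a subunit of the nascent-chain complex, went from 3438 and 4439 to 1229, 1180 and 1118 (−1.73 ± 0.13), SSZ1 fell by 0.84 and ZUO1 by 0.73 on the log2 scale. The near-identical SSB1 and SSB2 stood at −0.70 and −0.54. Of 14 subunits of the chaperonin CCT and of prefoldin, 4 were lower and none higher. Over all genes 22.8% were lower and 16.7% higher, so the count of lower ones is close to that share. The median of that list was −0.15, which turned to 0.07 under quantile normalization, where 2 were called higher. The prefoldin genes PAC10 (−0.91), YKE2 (−0.80) and GIM3 (−0.54) were the most changed.

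By their median, ER folding genes rose later than the cytosolic Hsp70 and disaggregation genes and were still climbing. Of 14, 9 were higher and none lower, against 16.7% and 22.8% of all genes. Their median change was 0.45 at 60 min, 0.94 at 90 min and 1.25 at 120 min, after −0.18 at 15 min and −0.09 at 30 min. Among the late times 11 of 14 were highest at 120 min, as were 1582 of all 4937 genes. The promoter of KAR2, the ER Hsp70, is shown for its pair of sites, first a heat shock element and then CAGCGTG, a core of the unfolded protein response element, both in capitals.
KAR2, chrX:381092-381203, plus strand: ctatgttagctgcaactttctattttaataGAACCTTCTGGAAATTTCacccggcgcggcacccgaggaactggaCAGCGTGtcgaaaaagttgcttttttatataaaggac
CAGCGTG, on either strand, was in 2.01% of all windows and in 2 of the 14 windows of this list. KAR2 (YJL034W) stood at 3962 and 4032 untreated, 6564 and 12098 at 15 and 30 min, and 19074, 24913 and 28963 late (2.58 ± 0.17, adjusted p 8.64e-06). Each value is higher than the one at the time before. MPD1, a disulfide isomerase, went from 228 and 274 to 466, 862 and 1223 (1.66 ± 0.31). ERO1, the oxidase that makes disulfides, went from 646 and 476 to 1302, 1792 and 2215 (1.64 ± 0.21). PDI1, the main disulfide isomerase, stood at 4558 and 3143 untreated and at 5207, 7808 and 10384 late (0.99 ± 0.26, adjusted p 0.0129). The Kar2 exchange factors SIL1 and LHS1 rose by 1.26 and 1.09, the ER J-proteins SCJ1 and JEM1 by 1.04 and 0.68, and the prolyl isomerase FPR2 by 0.73. EUG1 overlapped with untreated at 143 and 230 before it reached 358 at 120 min, and its mean change of 0.28 was not called (adjusted p 0.49). Calnexin (CNE1), the oxidase ERV2 and the isomerase EPS1 stood at −0.12, −0.03 and −0.16, none of them called.

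Degradation genes rose in smaller steps. Of 11 genes for ER-associated degradation 5 rose, against 16.7% of all genes, with a median of 0.42. Among the late times 8 were highest at 120 min, as were 1582 of all 4937 genes. The ligase HRD1 went from 178 and 185 to 296, 396 and 492 (1.09 ± 0.19), DER1 rose by 0.92 and USA1 by 0.67. DER1 lost its call with no filter on low values. Of 13 ubiquitin genes 9 rose and none fell. UBI4, the stress-induced polyubiquitin gene, went from 1463 and 1630 to 4201, 3815 and 3988 (1.37 ± 0.11), the ligase HUL5 rose by 1.09 and the Cdc48 partner UFD1 by 1.01. Proteasome genes rose by little. Of 33, 23 were called higher and none lower, and 31 were higher with equal totals. Their median was 0.42, with a range of 0.12 to 0.77, and 0.36 without the heat course's untreated library. Among the late times 27 were highest at 60 min, as were 47.4% of all genes. PRE2, a catalytic subunit, went from 1316 and 1504 to 2596, 2253 and 2375 (0.77 ± 0.12). RPN4, the transcription factor of proteasome genes, went from 351 and 328 to 801, 688 and 691 (1.09 ± 0.12). Its site GGTGGCAAA was in 27 of the 33 proteasome windows (81.8%) and in 1.57% of all windows.

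Among 15 stress regulators 8 rose and 2 fell, against 16.7% and 22.8% of all genes. MBF1, a coactivator of Gcn4, went from 3155 and 3453 to 16471, 15847 and 14626 (2.24 ± 0.12). HAC1, which encodes the factor of the unfolded protein response, rose by 0.75, YAP1 by 0.63, PDR3 by 0.57 and PDR1 by 0.54. HSF1 itself stood at 434 and 396 untreated and 482, 536 and 555 late. All late values are higher, but the change of 0.34 ± 0.12 was called only narrowly (adjusted p 0.0488), and not without the 90 min library (log2 change 0.32), the 120 min library (log2 change 0.30) or the rapamycin course's untreated library (log2 change 0.27). MSN4 was lower by −0.48 and IFH1, a coactivator of ribosomal protein genes, by −1.04.

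General stress genes rose moderately. Of 29 targets of Msn2 and Msn4, 24 were higher and none lower, with a median of 0.98 and 14 genes raised at least 2-fold. The shares over all genes were 16.7% higher, 22.8% lower and 3.59% raised at least 2-fold. Each of the 29 windows held the stress response element AGGGG on either strand, as did 29.2% of all windows and 49.1% of those of genes raised at least 2-fold. TMA10 went from 12.8 and 18.0 to 50.5, 93.1 and 187 (2.58 ± 0.44), DDR2 from 35.6 and 47.3 to 169, 153 and 201 (2.05 ± 0.19) and the glucokinase gene GLK1 from 317 and 205 to 813, 1092 and 1308 (2.04 ± 0.22). GLK1 overlaps another gene on its strand, so its reads are uncertain. HSP12, a membrane-protecting protein and usual marker of the programme, stood at 187 and 213 untreated and 498, 423 and 445 late (1.18 ± 0.13). GPH1 (−0.12) and YGP1 (−0.01), in contrast, were not called. Other rises among the largest of all were RTC3 (2.96 ± 0.37), from 39.9 and 26.5 to 138, 327 and 390, and STF2, a hydrophilin (2.73 ± 0.34), from 39.9 and 54.0 to 188, 321 and 513. YPT53, a small GTPase of endosomes, had 6 reads in the untreated libraries together and 88 in the late ones. Its 12-library mean of 75.2 passed the minimum for named genes, 50, only through the heat libraries, at 116 to 192. Its late values were 21.0, 25.2 and 34.6. Scaled for depth, late over untreated is 7.96, and counting error alone allows 3.52 to 22.3 at 95% confidence.

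**Figure D2:**
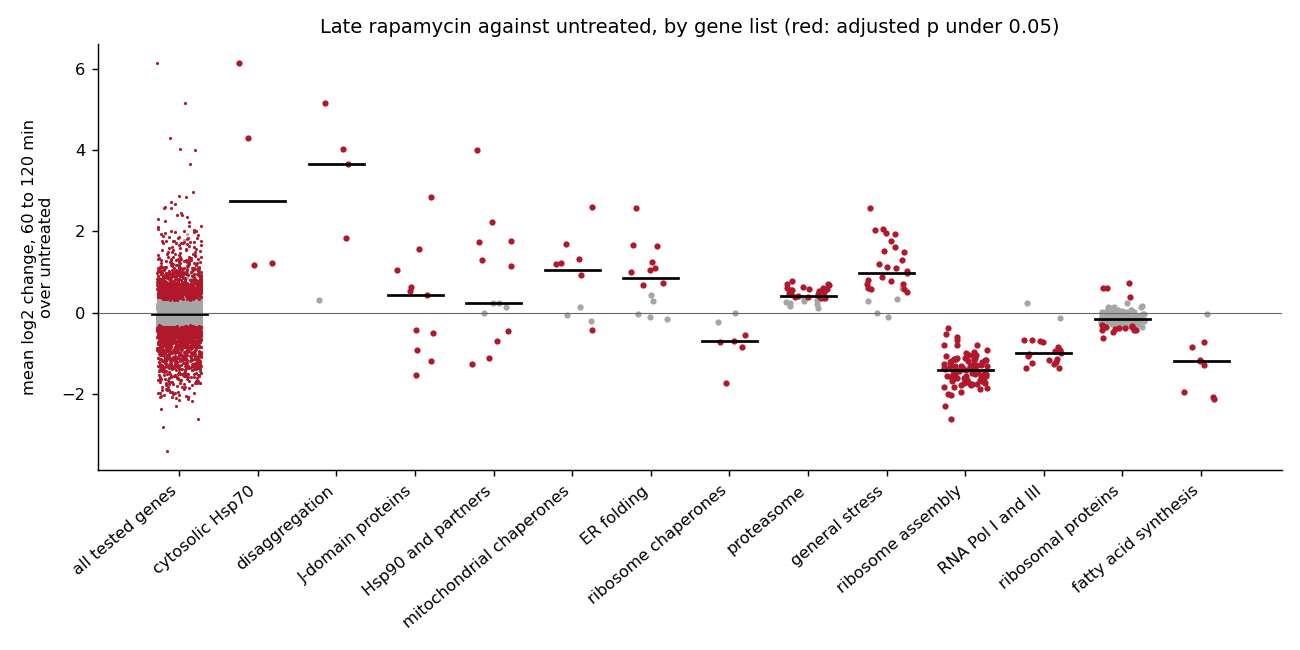
Mean log2 change of the 3 late over the 2 untreated libraries for each gene, by list; red points have an adjusted p under 0.05 and black bars are medians. Chaperone lists reach furthest up, and all 91 ribosome assembly genes lie below 0.

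Ribosome production genes fell. All 91 ribosome assembly factors tested were called lower, 81 of them by at least 2-fold, against 22.8% and 6.12% of all genes. Their median was −1.41, and −1.27 with equal totals, where 90 were called. Stretches upstream of DBP2 and NSR1, which hold the PAC motif of such genes, are shown with its letters in capitals (CTCATCGC is GCGATGAG on the other strand).
DBP2, chrXIV:413454-413521, plus strand: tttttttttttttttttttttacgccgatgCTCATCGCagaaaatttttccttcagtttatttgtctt
NSR1, chrVII:807806-807873, minus strand: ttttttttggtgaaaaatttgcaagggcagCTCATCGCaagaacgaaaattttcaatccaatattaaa
PAC was in 51 of the 91 windows (56%), in 106 of 302 windows of all genes that were lower by at least 2-fold (35.1%) and in 5.05% of all windows. The windows of DHR2 and ENP2, named below, held no match. DBP2 (YNL112W), an RNA helicase, stood at 3826 and 3191 untreated, 1817 and 1166 at 15 and 30 min, and 696, 526 and 508 late (−2.61 ± 0.16, adjusted p 4.98e-06). NSR1 (YGR159C), yeast nucleolin, went from 4808 and 2989 to 1257, 1163 and 909 (−1.78 ± 0.20). The helicase DHR2 went from 436 and 431 to 98.2, 82.5 and 81.2 (−2.30 ± 0.14), and ENP2 fell by 2.04 ± 0.17 on the same scale. FAF1 (−2.10 ± 0.19) and PXR1 (−2.08 ± 0.18), which also serve rRNA processing, were among the 10 largest falls. In each of these genes every late value lies below both untreated values. Of 19 subunits of RNA polymerases I and III, 17 were lower, with a median of −1.002. RPA43 went from 727 and 788 to 348, 290 and 244 (−1.38 ± 0.15), RPA34 by −1.37 and RPC82 by −1.27.

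Ribosomal protein genes, by contrast, moved little. Of 138, 13 were called lower and 4 higher, against 22.8% and 16.7% of all genes, with a median of −0.16. With equal totals the median was −0.02 and 1 was lower, so their direction rests on the scaling. Without the rapamycin course's untreated library 4 were lower. RPL13A, the usual anchor gene, went from 485 and 287 to 586, 628 and 627 (0.72 ± 0.19), RPL9B rose by 0.61 and RPL22B by 0.60. RPL13A lost its call with no filter on low values and without the rapamycin course's untreated library. RPL22B lost its call with no filter, without the heat course's untreated library and without the 90 min library. Over all 12 libraries RPL9B and RPL22B were not called. RPL15B (0.39) lost its call under 8 alternatives, while RPS22B was lower by −0.63 ± 0.13. Most of these genes have a near-identical twin, and RPS22B overlaps a non-coding RNA on its strand, so single values are uncertain.

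**Figure D3:**
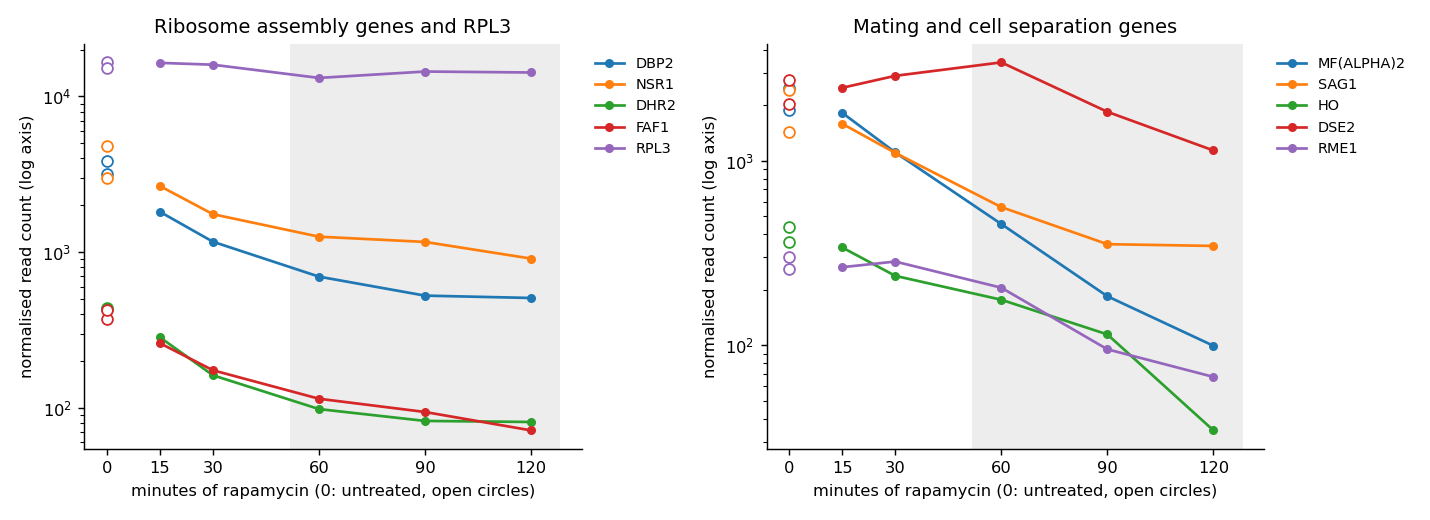
Normalised read count on a log axis against minutes of rapamycin for ribosome and for mating and cell separation genes; open circles are the 2 untreated libraries and the late window is shaded. DBP2 falls from 3826 and 3191 to 508, RPL3, a ribosomal protein gene, stays within 13147 to 16543, and HO drops to 34.5 at 120 min.

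Genes of the alpha mating type fell in all 4 cases, with a median of −2.08. MF(ALPHA)2 (YGL089C), a pheromone gene, stood at 2490 and 1880 untreated and at 454, 184 and 99.3 late. Its fall of −3.41 ± 0.47 was the largest of all tested genes (adjusted p 0.000363). MF(ALPHA)1 went from 7452 and 6441 to 2569, 1804 and 1182 (−1.97 ± 0.26), the agglutinin SAG1 from 2413 and 1428 to 561, 353 and 345 (−2.18 ± 0.25) and the receptor gene STE3 from 1891 and 1690 to 1194, 808 and 637 (−1.07 ± 0.22). The late values of each lie below both untreated ones. Of 6 markers of the a type, 3 could be tested. None was called, and their median of −0.02 turned to 0.12 under equal totals. Of 8 sporulation genes 3 were called higher, SPO11 by 0.57, DIT1 by 0.61 and NDT80 by 0.44, but 1 was without the heat course's untreated library and 1 under quantile normalization. The call of SPO11 was lost under 8 alternatives, DESeq2 among them, and that of DIT1 under 2. The early regulator IME1 stood at 9.98 and 16.1 untreated and 19.1, 12.6 and 28.5 late, with overlap.

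Cell cycle genes were lower in 8 of 15 and higher in 2, against 22.8% and 16.7% of all genes. With equal totals 5 were lower, as were 788 of all 4937 genes. The lower ones act at mitosis and its exit or hold G1. The activator of the anaphase complex CDC20 went from 251 and 251 to 76.3, 92.2 and 62.2 (−1.71 ± 0.18), the mitotic cyclin CLB1 fell to 196, 158 and 153 from 451 and 577 (−1.59 ± 0.16) and the cyclin inhibitor FAR1 by −1.59 ± 0.15. CLB2 and the factor SWI5 stood at −1.40 and −1.27. The G1 cyclin PCL1 was higher, at 313, 379 and 441 after 143 and 190 (1.18 ± 0.18), and PCL2 by 0.64. HO, the mating type switching nuclease, went from 362 and 438 to 176, 114 and 34.5 (−2.15 ± 0.51), and its call was lost by DESeq2, with no filter on low values and without the rapamycin course's untreated library. Of 10 histone genes 3 were called lower, against 22.8% of all genes. These were HTA2 by −0.60, HTB2 by −0.52 and HTB1 by −0.49, and quantile normalization ended each call.

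Lipid synthesis genes fell. Of 9 fatty acid and IZH genes 8 were lower, with a median of −1.20. OLE1, the only fatty acid desaturase of yeast, went from 9043 and 7891 to 1488, 1956 and 2745 (−2.08 ± 0.21). It was lowest at 60 min, and so was IZH4, a membrane protein gene, at 247 and 249 untreated and 40.05, 51.4 and 83.8 late (−2.13 ± 0.26). IZH1 fell by 1.96 on the log2 scale. Of 23 ergosterol genes 12 were lower and none higher, with a median of −0.41. The largest were ERG24 (−1.42 ± 0.14), ERG11 (−1.39 ± 0.14), from 7370 and 5931 to 2796, 2401 and 2385, and ERG3 (−1.33 ± 0.13). Of 11 phosphate genes 3 were lower and 1 higher, against 22.8% and 16.7% of all genes. PHO3, an acid phosphatase, went from 1346 and 1072 to 239, 165 and 124 (−2.82 ± 0.23), and its near-identical neighbour PHO5 was lower by −0.74, while the transporter PHO89 rose by 1.07. The median of that list, −0.03, turned to 0.11 under equal totals. INA1, a plasma membrane protein gene of unknown role, went from 3952 and 2912 to 533, 709 and 747 (−2.37 ± 0.17).

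Carbon genes showed mixed changes. Of 19 glycolytic genes 9 were lower and 3 higher, with a median of −0.29. TDH2 went from 6296 and 4658 to 2275, 2162 and 2030 (−1.33 ± 0.14), the decarboxylase PDC1 fell by 1.10 on the log2 scale, and PYK2, a minor pyruvate kinase, rose by 1.39 ± 0.14. HXK2 (0.48, adjusted p 0.0328) and PGK1 (0.46, adjusted p 0.0355) were called higher, but lost their calls under 7 and 6 alternatives, among them most of those that left out 1 library. Of 9 hexose transport genes tested, 2 were higher and 2 lower, close to the shares of 16.7% and 22.8% over all genes. HXT4 went from 903 and 775 to 288, 185 and 151 (−2.06 ± 0.23) and HXT3 was lower by −0.97, whereas HXT1 rose by 1.02 ± 0.23 to 1351, 2171 and 2199 from 1128 and 747, a call that was lost without the rapamycin course's untreated library. Their median of 0.14 turned to −0.09 without the rapamycin course's untreated library, and HXT genes share sequence. Of 19 genes of the TCA cycle 3 were higher and 4 lower, again close to 16.7% and 22.8%. These became 7 and 1 with equal totals, and 1 and 1 without the rapamycin course's untreated library, where DLD3, KGD1 and CIT1 lost their calls. SDH3 had the largest change (−1.13 ± 0.12), DLD3 rose by 0.45, KGD1 by 0.43 and CIT1 by 0.40, and the list's median of −0.03 turned to 0.11 under equal totals.

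Nutrient genes gave no single direction. Of 19 nitrogen catabolite genes, which rise when TORC1 is inhibited, 6 were higher and 4 lower, with a median of 0.21. Over all genes 16.7% were higher and 22.8% lower. The permease GAP1 went down from 1236 and 1123 to 784, 504 and 343 (−1.20 ± 0.27), with GLN1 (−0.75) and MEP3 (−0.73). MEP2 (−0.70, adjusted p 0.0472) overlapped with untreated at 60 min and lost its call under 10 alternatives, equal totals and edgeR among them. MEP1 rose by 0.95 and DAL1 by 0.84. Of 28 amino acid genes under Gcn4, 9 were higher and 3 lower, with a median of 0.21. ARG3 rose most (1.74 ± 0.26), then HIS4 (0.97) and HIS3 (0.90), and ARO4 and ILV1 were lower by −0.58 and −0.57. ARO4 lost its call over all 12 libraries, and ILV1 under quantile normalization and without the 90 min library. LYS20 (−0.56) lost its call under 6 alternatives, and without the rapamycin course's untreated library 6 of the list were higher. Of 19 sulfur genes 3 were higher and 5 lower, close to the shares over all genes, with a median of 0.19. With equal totals 8 were higher. The S-adenosylmethionine synthetases SAM1 (−1.74 ± 0.20) and SAM2 (−1.41 ± 0.19) and the methionine synthase MET6 (−1.32 ± 0.26) fell, as did CYS4 (−0.65) and MET17 (−0.56), which overlaps a gene on the other strand. MET17 was not called under quantile normalization or over all 12 libraries. MET14 rose by 1.36 ± 0.19.

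Several smaller lists rose. Of 25 iron genes 16 were higher and none lower, with a median of 0.49. HMX1, the heme oxygenase gene, went from 207 and 173 to 541, 471 and 434 (1.34 ± 0.14), TIS11 rose by 1.30 and ISU2 by 1.25. At 15 and 30 min the list's medians were already 0.80 and 0.83, above those of 0.53, 0.42 and 0.54 at the late times. Of 11 drug efflux genes 6 were higher. ICT1 rose by 1.03 ± 0.24 and the pump PDR15 by 0.88, and the weak-acid pump PDR12 was lower by −0.90. ICT1 lost its call with no filter on low values. Of 15 autophagy genes tested, 8 were higher and none lower, with a median of 0.50. ICY2, also known as ATG41, rose by 1.47, ATG8 by 0.98 and ATG5 by 0.85. Of 22 cell wall genes 5 were higher and 4 lower, close to the shares of 16.7% and 22.8% over all genes. These became 7 and 2 without the heat course's untreated library, and 2 and 8 without the rapamycin course's one. The protease YPS1 went from 525 and 328 to 1160, 1600 and 1933 (1.88 ± 0.23) and the glucan synthase GSC2 rose by 1.30 ± 0.34 (not called without the rapamycin course's untreated library), while CWP1 was lower by −1.51, PIR1 by −0.97, BGL2 by −0.68 and GAS5 by −0.57. GAS5 was not called under quantile normalization. The wall list's median of 0.02 turned to −0.22 without the rapamycin course's untreated library. Of 7 genes often used as references 1 was lower, ALG9 by −0.76. ACT1 stood at 14848 and 12371 untreated and 11452, 11656 and 11373 late, a change of −0.24 that was not called (adjusted p 0.166) but was without the rapamycin course's untreated library (−0.37).

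The direction of change inside the late window was then asked with a slope per doubling of time, which is the span from 60 to 120 min. It was called above 0 in 21 genes (0.425%) and below 0 in 22 (0.446%). Those calls are fragile, since 1 gene was left without the 60 min library and 2 without the 120 min one. Without filter on low values none was called by limma (478 at an unadjusted p under 0.05), whereas edgeR called 57 and DESeq2 65 with it. No member of the cytosolic Hsp70, exchange, J-domain, Hsp90 or disaggregation lists was called, which does not show that they were level. The median slopes of these lists lay between −0.27 and −0.13, and SSA4, HSP104, BTN2 and CUR1 had slopes of −0.35, −0.27, −0.49 and −0.45. Of 14 ER folding genes, 5 had a slope called above 0, which were MPD1 (1.40), EUG1 (1.31), FPR2 (1.04), LHS1 (0.99) and SIL1 (0.85). The median slope was 0.70. The slope of KAR2, 0.61, was not called (adjusted p 0.201).

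The steepest rises by the naming rule were those of ATG17, an autophagy scaffold (2.0), YET2 (1.64), the splicing factor SPP382 (1.64), GSC2 (1.56) and STF2 (1.44). ATG17 went from 91.3 and 117 untreated to 171, 344 and 693 in the late libraries. Its neighbour SPP382 starts 224 bases away in the other direction, and went from 135 and 152 to 156, 245 and 503. The steepest falls were those of HO (−2.24), MF(ALPHA)2 (−2.18), the serine deaminase CHA1 (−1.77), the meiotic repressor RME1 (−1.61) and DSE2 (−1.58), a daughter-cell wall gene. DSE2 stood at 2734 and 2030 untreated and at 3415, 1843 and 1137 late, and thus fell from above to below the untreated range within the window. Of 4 alpha mating type genes 3 had a slope called below 0. The fit of these slopes had only 2 residual degrees of freedom.

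**Figure D4:**
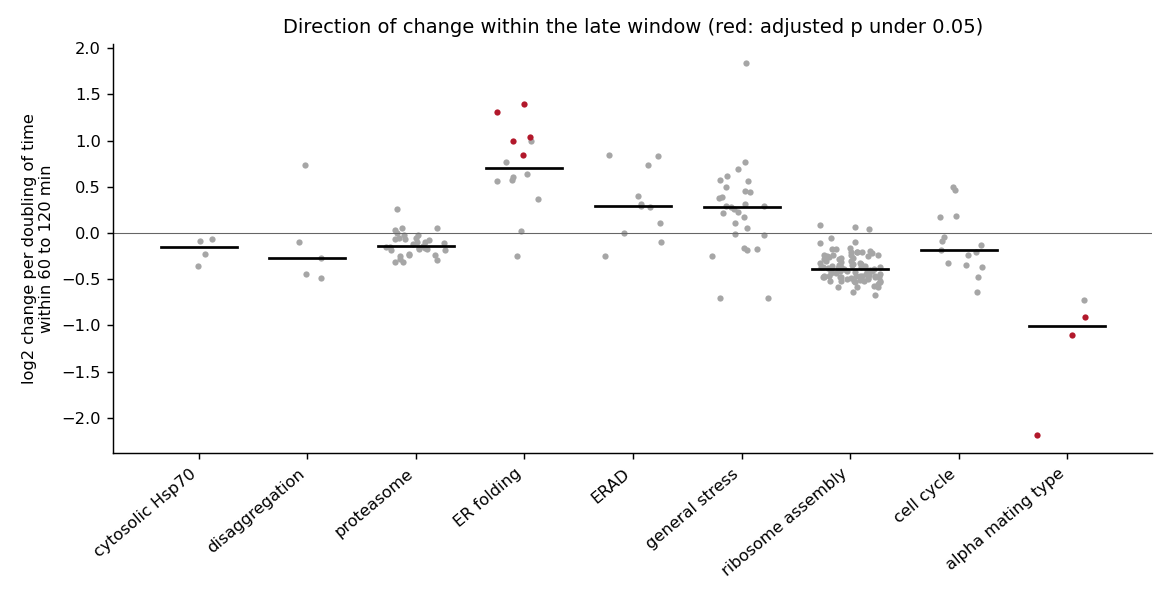
Log2 change per doubling of time within 60 to 120 min for each gene, by list; red points have an adjusted p under 0.05 and black bars are medians. ER folding genes have a median of 0.70, cytosolic Hsp70 genes −0.16 and alpha mating type genes −1.01.

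Late and early rapamycin libraries were compared next. Called genes were higher late in 282 cases (5.71%) and lower late in 553 (11.2%). The share higher was 33.8%, and 48.6% with equal totals. These calls rest on the 15 min library, since none was left without it by limma (889 at an unadjusted p under 0.05). Without the 90 min library 319 were called and without the 120 min library 436. With all libraries edgeR called 854 and DESeq2 796. Of the 91 ribosome assembly factors 86 were lower late than early, with a median of −0.79, and so were 11 of 19 polymerase subunits and all 4 alpha mating type genes. Of 14 ER folding genes 10 were higher, as were 15 of 29 general stress genes and 8 of 33 proteasome genes. The Hsp70, exchange, J-domain, Hsp90 and disaggregation lists held 38 genes. Of these, SSA1 (1.05), HSP42 (1.18), SSE1 (0.59), SSE2 (0.58) and SWA2 (0.61) were higher late. JJJ1, JJJ2, JJJ3, CNS1 and PPT1 were lower late. SSA4 was not called (1.81, adjusted p 0.0529), and its 2498 at 15 min and 19008 at 30 min lay far apart. By rule the largest differences were RTC3 (2.55 ± 0.37), YPT53 (2.05), TMA10 (2.03), HXT12 (1.98) and STF2 (1.96) above 0, and MF(ALPHA)2 (−2.80), HXT4 (−1.70), SAG1 (−1.69), HO (−1.66) and EGT2 (−1.59) below. HXT12 shares sequence with other HXT genes, so its reads are uncertain.

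Last, the late rapamycin libraries were set against the late heat libraries. The difference was above 0 in 1778 genes (36.0%) and below 0 in 1515 (30.7%). Under equal totals the share above 0 went from 54.0% to 36.0% and the median of all genes from 0.05 to −0.20. The late heat libraries summed to 3048499 to 3328239 normalised reads, and the 5 other libraries of the main comparison to 3724972 to 4266203. Each of the 10 genes named by this comparison kept its call under every alternative run. General stress genes differed most. In heat their median change from the same untreated mean was 5.0 at 60 min and 4.76 at 120 min, and 28 of 29 were lower in rapamycin. HSP12 stood at 40184, 33972 and 32908 in late heat and at 498, 423 and 445 in late rapamycin (−6.29 ± 0.11). HSP26 stood at 6722, 7928 and 9689 against 61.0, 78.6 and 102.8 (−6.65). SIP18, with 3 to 7 reads in late rapamycin, differed by −6.79, TDH1 by −5.45 and the wall protein PIR3 by −5.34. SIP18 stood at 422, 462 and 1091 in late heat, and only the heat libraries took it past the minimum mean for named genes.

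Many cytosolic chaperones were higher in late rapamycin than in late heat. SSA4 stood at 4303, 4415 and 3863 in late heat and at 21908 or more in late rapamycin (2.53 ± 0.12). BTN2 was higher by 1.90 ± 0.12, SSA2 by 2.11, SIS1 by 1.42, YDJ1 by 1.48, SSA1 by 0.91 and HSP104 by 0.79. HSP82 (−0.19, adjusted p 0.19) and HSP42 (0.06, adjusted p 0.7) were not called different, and SSA3 and SSE2 were lower in rapamycin by −1.70 and −2.83. KAR2, at 21017, 26204 and 25762 in heat, was not called different either (−0.01, adjusted p 0.95). Of the 14 ER folding genes, KAR2 included, 8 were called lower in rapamycin, among them EUG1 (−1.31) and MPD1 (−0.76). Proteasome genes were higher in rapamycin in 32 of 33, with a median difference of 0.79. Ribosomal protein genes were higher in 135 of 138 (median 1.42) and assembly factors in 90 of 91 (1.39). NSR1 (2.80) and DBP2 (2.96) were among the largest, with ZPR1, a zinc finger chaperone (3.20), the wall glucanase SCW10 (3.0) and HXT2 (2.96). ZPR1 stood at 1379 and 1105 untreated and at 4355, 3693 and 3099 in late rapamycin, but at 356, 422 and 420 in late heat.

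**Figure D5:**
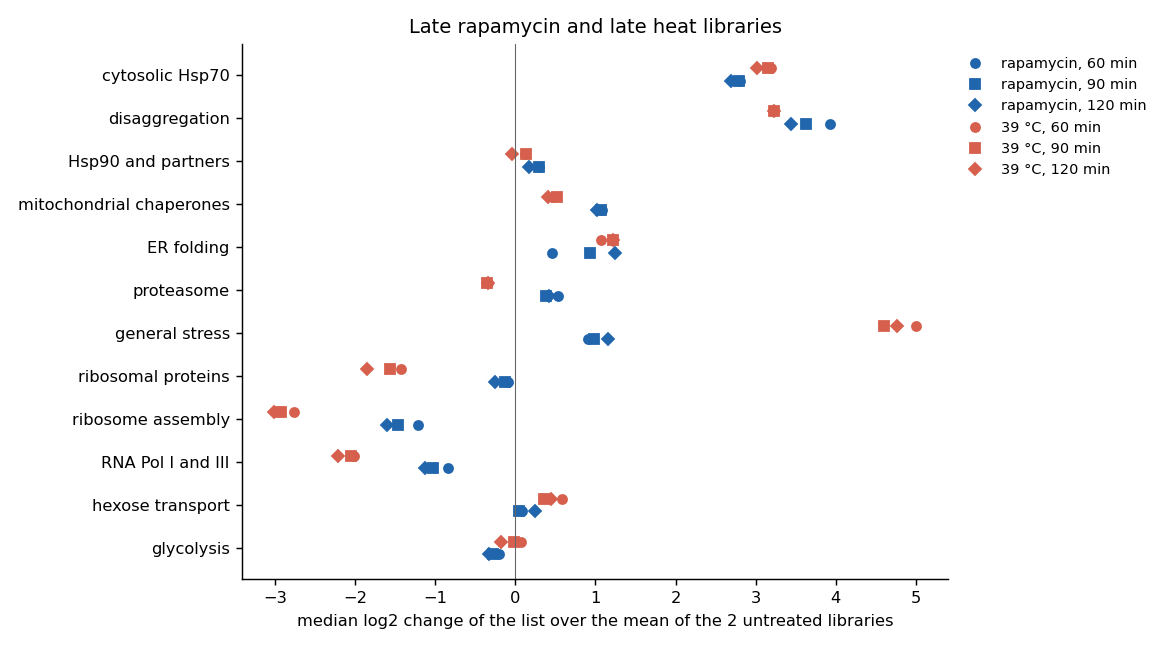
Median log2 change of each list over the mean of the 2 untreated libraries in the late rapamycin (blue) and late heat (red) libraries, with 1 symbol per library. Both courses are measured from the same untreated libraries. General stress genes lie near 1 in rapamycin and near 5 in heat. The median of the 4 cytosolic Hsp70 genes lies near 3 in both, but 3 of them were called higher in rapamycin and 1 lower.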

How the data were processed

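Libraries of polyA RNA were made with a NEBNext Ultra kit, per the labels' protocols. Per the submitters' processing notes, Bowtie, HTSeq and sacCer3 were used, and versions, strand use and the normalization method are not given in the sources used here. The authors deposited 1 table of 5045 genes whose values are a signal, normalized gene counts per the file headers. In 9 libraries, among them all rapamycin and untreated ones, dividing by the value of 1 read gave whole reads for 100.0% of values, within 0.05 read. Reads were not recovered for the late heat libraries.

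Log2(value + 1) was fitted with limma 3.58.1 in R 4.3.3 (eBayes with a variance trend) over the libraries of each comparison, for 4937 genes with a 12-library mean of at least 10, and 108 genes were left out. Residual degrees of freedom were 3 for late against untreated, 2 for the slope, 4 for late against early and 5 for late rapamycin against late heat. A gene is called when its p, adjusted after Benjamini and Hochberg over all 4937, is under 0.05. On recovered reads, edgeR 4.0.16 and DESeq2 1.42.0 were alternatives. Scripts were tested on simulated data.

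The members and gene lists were chosen with earlier results of these data known. Named genes were SIS1, FPR1 and TOR1, a set of chaperone and reference genes, the 10 largest called rises and falls with a mean of at least 50 whose late values all lie outside the untreated range, the 5 largest each way in other comparisons, the 3 most changed members of each list, and members called against their list's median. Other members are named as examples. Of the systematic names 5023 matched RefSeq, whose R64 assembly (the sequence of sacCer3) gave promoters and neighbours. Counting intervals and limits cover counting error only.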

Additional observations from a re-analysis of the deposited data

Results flagged for a closer look

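Effects that differed between conditions by a test of the difference itself are listed here. Between late and early rapamycin, on the log2 scale and late minus early, these were RTC3 (2.55), YPT53 (2.05), TMA10 (2.03), HXT12 (1.98) and STF2 (1.96) above 0. Below 0 they were MF(ALPHA)2 (−2.80), HXT4 (−1.70), SAG1 (−1.69), HO (−1.66) and EGT2 (−1.59). None of these 10 was called without the 15 min library.

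Between late rapamycin and late heat, rapamycin minus heat, the differences above 0 were ZPR1 (3.20), SCW10 (3.0), HXT2 (2.96), DBP2 (2.96) and NSR1 (2.80). Those below 0 were SIP18 (−6.79), HSP26 (−6.65), HSP12 (−6.29), TDH1 (−5.45) and PIR3 (−5.34). All 10 were called under every alternative run. SIP18 here, and YPT53 above, passed the minimum mean for named genes only through the heat libraries. SIP18 also passed the minimum mean of 10 for testing only through them, so its difference is given as a description.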

How the results depend on the processing

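The comparison of late with untreated libraries called 1949 genes, 1939 by edgeR and 1753 by DESeq2 on recovered reads, 479 at a change of at least 1 (log2), and 1260 to 1936 with 1 library left out, lowest without the 90 min library. Of 169 named genes 114 kept side and direction under all alternatives. The slope within the late window called 43 genes, 77 with equal totals, 79 with quantile normalization, 65 by DESeq2 and 0 with no filter on low values, with no variance trend or over all 12 libraries (478, 447 and 295 at an unadjusted p under 0.05). It called 1 to 876 with 1 library left out, most without an untreated library, where the spread between those is lost. Late against early rapamycin called 835 genes, 421 with no filter, 409 over all 12 libraries and 0 to 1035 with 1 library left out. Changes against untreated that turned sign, and were not called there, were TOR1 (0.049 with equal totals, 0.076 with quantile normalization, −0.188 to 0.000 with 1 library left out), TDH1 (0.074, equal totals), ASG7 (0.115 with equal totals, 0.028 by edgeR, 0.038 by DESeq2, −0.209 to 0.211 with 1 left out), PIR3 (−0.148 with quantile normalization, −0.297 to 0.437 with 1 left out), BAR1 (−0.052, quantile normalization), HXT2 (−0.110 to 0.538 with 1 left out) and DSE2 (−0.702 to 0.091 with 1 left out). The cause was not tested. edgeR and DESeq2 were not run on the late heat comparison, whose reads were not recovered. Depth limits genes near 3 reads per library, such as FPR1 and SIP18, for which no direction is given against untreated.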

Other observations

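Genes that lie head to head with a strongly raised gene were often raised too. Of the 177 genes called higher by at least 2-fold, 61 have a divergent coding neighbour among the tested genes, and 30 of those neighbours were called higher (49.2%). Over all 2130 genes with such a neighbour the share was 16.5%. A pair in which both genes were raised at least 2-fold counts from each side, as do SIS1 and LST8, KAR2 and TAD2, and SSC1 and TAH11. The neighbours' median change was 0.37, against −0.05 over all. LST8, a subunit of the TOR complexes, starts 501 bases from SIS1. It stood at 472 and 490 untreated and 2320, 1996 and 1878 late, a rise of 2.09 ± 0.12. TAD2, a tRNA deaminase gene 325 bases from KAR2, went from 193 and 211 to 399, 547 and 636 (1.36 ± 0.18), climbing as KAR2 did. TAH11, a replication licensing gene 445 bases from the mitochondrial Hsp70 gene SSC1, rose by 1.14 beside SSC1's 1.19. The pairs were counted after the values were seen, and no test was made.

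A further gene list was chosen after the values were seen, and is given as a description. Of 13 targets of Crz1, the factor that calcineurin activates, 11 were called higher and none lower, with a median of 0.95. The shares over all genes were 16.7% higher and 22.8% lower. The medians were 0.22 and 0.24 at 15 and 30 min, and 0.55, 0.87 and 1.36 at 60, 90 and 120 min. The kinase CMK2 went from 224 and 258 to 774, 1052 and 1429, PUN1 from 386 and 386 to 968, 1337 and 2002, and the calcium pump PMC1 from 629 and 647 to 899, 1163 and 1446. Each was lowest of its late values at 60 min.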
